A study of Rattus norvegicus with 125 samples.

Results

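Transcription factors that give the parts of the kidney tubule their identity were examined in RNA sequencing of rat renal segments isolated by hand under the microscope. The set was a fixed list of 34 gene symbols, of which 30 were found among the 17144 symbols of the deposited table. Grhl1, Barx2, Cux1 and Lmx1b were not analysed here. The segment libraries came from collagenase-perfused left kidneys of male adult Sprague-Dawley rats of 200 to 250 g on normal chow. Tissue was digested for 25 min for cortex, 50 min for outer medulla and 90 min for inner medulla, so digestion time and kidney zone cannot be told apart. The tubule libraries covered 14 segments. From the proximal tubule there were 7 libraries each of S1, S2 and S3. For thin limbs there were 10 libraries of short-loop descending limb (SDL), 9 and 4 of long-loop descending limb from outer medulla (LDLOM) and inner medulla (LDLIM), and 7 of thin ascending limb (tAL). Thick ascending limbs gave 7 medullary (mTAL) and 7 cortical (cTAL) libraries, distal convoluted tubule (DCT) gave 8, and connecting tubule (CNT) gave 6. Collecting duct came from cortex (CCD, 11 libraries), outer medulla (OMCD, 7) and inner medulla (IMCD, 8). There were also 5 glomerulus libraries from male adult Sprague-Dawley rats, whose protocol field describes the water-load rats and does not say which rats gave glomeruli. A separate experiment compared CCD of 5-week-old male Sprague-Dawley rats that all carried minipumps releasing the vasopressin analogue DDAVP at 5 ng per h, on 25 mL of water per day (control, n = 4) or 50 mL per day (water load, n = 4) for 4 days. The labels do not say which tubule libraries share a rat, and p-values therefore reflect only how dissected libraries vary.

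Transcription factors bind short DNA sequences and switch genes on or off, and a small set of them, kept on in adult life, holds each tubule segment in its differentiated state. The nephron from glomerulus to distal convoluted tubule arises from kidney mesenchyme, whereas the collecting duct arises from the ureteric bud, and the connecting tubule lies where they meet. Pax8, Pax2, Lhx1 and Wt1 are needed to build the kidney, Hnf4a and Hnf4g are nuclear receptors of absorptive epithelia, Iroquois factors (Irx1, Irx2, Irx3) pattern the loop, and Gata2, Gata3, Tfcp2l1, Elf5 and Ehf are known from collecting duct or other lining epithelia. In these bulk samples, fewer cells of a type and less RNA per cell cannot be told apart.

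The promoters of the genes whose levels marked the ends of the tubule are shown for context, as the 250 bases before each RefSeq transcript start on build GRCr8. They are given for Hnf4a, the only member that was higher in the proximal tubule, and for the 4 members that were higher in the collecting duct and have an entry. Of the 30 members, 18 had an entry, with 22 windows in all. Letters are lower case except matches to the motifs named below.
Hnf4a, first start, chr3:172605970-172606219, plus strand: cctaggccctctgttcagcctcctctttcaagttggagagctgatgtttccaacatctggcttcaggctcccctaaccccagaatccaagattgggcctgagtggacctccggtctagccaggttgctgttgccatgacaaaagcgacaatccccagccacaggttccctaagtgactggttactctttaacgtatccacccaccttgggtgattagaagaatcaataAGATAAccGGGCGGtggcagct
Hnf4a, second start, chr3:172641586-172641835, plus strand: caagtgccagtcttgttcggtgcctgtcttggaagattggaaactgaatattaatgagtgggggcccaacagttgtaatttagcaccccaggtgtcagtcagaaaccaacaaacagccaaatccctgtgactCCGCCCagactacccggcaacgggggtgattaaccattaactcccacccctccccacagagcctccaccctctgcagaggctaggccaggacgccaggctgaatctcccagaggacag
Elf3, chr13:49247087-49247336, minus strand: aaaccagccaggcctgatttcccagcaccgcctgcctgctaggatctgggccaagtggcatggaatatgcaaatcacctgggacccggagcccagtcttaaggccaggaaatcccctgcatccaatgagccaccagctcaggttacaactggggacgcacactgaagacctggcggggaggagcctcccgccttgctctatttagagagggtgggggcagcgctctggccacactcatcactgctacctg
Gata2, chr4:122216031-122216280, plus strand: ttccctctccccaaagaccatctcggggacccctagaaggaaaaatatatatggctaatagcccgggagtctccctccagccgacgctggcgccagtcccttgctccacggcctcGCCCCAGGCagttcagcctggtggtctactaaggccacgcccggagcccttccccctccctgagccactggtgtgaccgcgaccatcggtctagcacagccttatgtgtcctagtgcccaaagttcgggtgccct
Gata3, chr17:73553298-73553547, plus strand: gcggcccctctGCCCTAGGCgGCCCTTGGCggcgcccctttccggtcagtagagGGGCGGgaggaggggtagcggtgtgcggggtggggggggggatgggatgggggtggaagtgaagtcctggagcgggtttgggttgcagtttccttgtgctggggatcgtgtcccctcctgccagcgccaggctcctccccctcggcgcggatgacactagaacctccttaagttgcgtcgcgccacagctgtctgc
Tfcp2l1, chr13:32286393-32286642, plus strand: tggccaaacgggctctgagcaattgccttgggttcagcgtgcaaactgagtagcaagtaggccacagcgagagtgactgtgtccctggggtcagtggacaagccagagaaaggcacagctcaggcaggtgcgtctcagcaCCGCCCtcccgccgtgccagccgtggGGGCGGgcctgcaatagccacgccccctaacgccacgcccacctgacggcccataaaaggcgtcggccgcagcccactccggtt
Capitals mark these letters on either strand: AGATAA for GATA factors, GCCNNNGGC for AP-2 factors, CAAAGTCCA for HNF4, CAAGGTCA for the estrogen-related receptors, GGGCGG for the GC box and TATAAA for the TATA box. The GC box and the AP-2 letters can share bases.

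AGATAA stood next to a GC box at the first Hnf4a start and was found in 2 of the members' 22 windows, against 10.3% of all 33469 windows. GCCNNNGGC was present in Gata2 and Gata3, and in 8 of the 22 windows, against 12.59% of all windows. The GC box was in 11 of the 22 windows, belonging to 9 of 18 members, against 30.47% of all windows. Members' windows were rich in G and C, with a median of 62.6% against 51.2% over all windows, and 21 of the 22 lay above that median, so GC-rich letters had more chance to occur. No member window held CAAAGTCCA, CAAGGTCA or TATAAA, which were in 0.34%, 1.33% and 12.93% of all windows. A match describes the letters only. The expression files do not separate the start sites of Hnf4a.

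Levels are in RPKM, reads scaled to transcript length and library size, and differences are on the log2(RPKM + 1) scale. Tubule libraries reached 1438 to 8574 genes at 1 RPKM or more, 14 of them under 2500, and relative depth estimated from low values spanned 14.2-fold. Even the housekeeping gene Ppia was listed at 0 in 1 library, so a 0 is called listed at 0. Summed markers of 4 libraries went against their labels. In S3 replicate 7, thin limb markers summed to 3910 RPKM and proximal markers to 711 RPKM, while in LDLOM replicate 1 proximal markers (2330 RPKM) exceeded thin limb markers (584 RPKM). In tAL replicates 1 and 2, endothelial markers summed to 2677 and 2951 RPKM and thin limb markers to 71.2 and 4.46 RPKM. These 4 libraries were kept, and member calls between regions or neighbouring segments that changed without them are named below. In the other libraries of S1 to S3, the thin limbs, the thick limbs, CNT and collecting duct, the markers of the labelled segment had the highest sum of the tubule, podocyte and endothelial lists. In DCT, thick limb markers (213 to 1833 RPKM) exceeded DCT markers (44.99 to 382 RPKM) in 6 of 8 libraries, and principal cell markers did so in 3. Of 3 listed DCT markers 2 were measured, and Pvalb was at 0 in all DCT libraries. The DCT sum was thus Slc12a3 alone, against 4 thick limb genes and 5 principal cell genes, so these sums do not compare like with like. Leukocyte markers, chiefly Cd74 and Lyz2, exceeded the segment's own in 16 tubule libraries, all 8 of DCT among them, and their part in the results was not tested.

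The levels of many members differed along the tubule. Members were chosen with earlier results of these data known, so shares above those of all genes, here and below, are no independent result. Of the 30 members, 25 had a median of at least 1 RPKM in at least 1 segment, 3 had this only in glomeruli (Wt1, Foxc2 and Tcf21), and Hnf4g and Pax2 had it nowhere. Elf5 and Osr2 had such a median in 1 segment only, 16 members in 2 to 5 segments and 7 in 6 or more, with Pax8 and Elf3 reaching 13. After a filter of at least 1 RPKM in at least 4 libraries, 27 members were tested across segments, all but Pax2, Wt1 and Foxc2. Of these, 22 differed across the 14 segments at an adjusted p under 0.05, against 41.5% of the 11078 genes tested. The remaining 5 were Grhl2, Klf15, Pou3f3, Sim1 and Tcf21. Without the 4 libraries that stood apart, Pou3f3 and Sim1 passed as well (adjusted p = 0.0227 and 0.0311) and Hnf4g did not. Hnf4g had passed the filter only through S1 and S2 libraries, Osr2 only with its LDLIM libraries, and Elf5 and Tfap2a only through the collecting duct. The variation of these genes across segments is therefore no independent result.

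**Figure D1:**
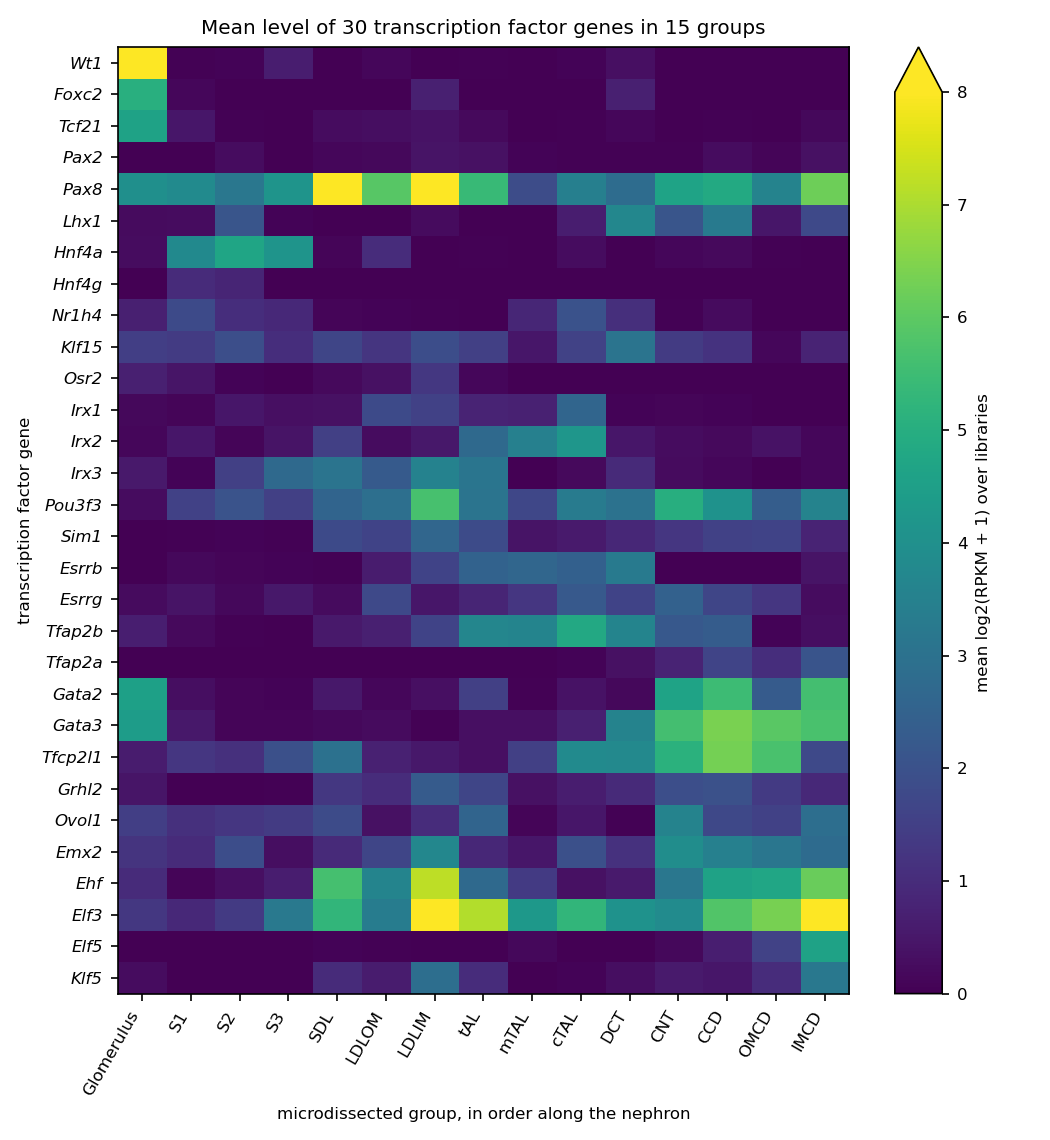
Mean log2(RPKM + 1) over the libraries of each of 15 microdissected groups (columns, in order along the nephron after the glomerulus) for 30 transcription factor genes (rows), with the colour scale ending at 8. Wt1, Foxc2 and Tcf21 are bright in glomeruli, Hnf4a in S1 to S3, Irx2 and Tfap2b in the thick limbs, and Gata2 and Gata3 in the collecting duct.

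Between neighbouring segments, a difference counted as called when it reached at least 1 in log2 size at an adjusted p under 0.05. Over the 14 borders 27 of 378 pairs of member and border were called, against 2.65% over all genes, and 16 of 27 members changed at 1 border or more, against 25.2% of genes. From S3 there were 3 calls to SDL (7.52% of genes called) and 3 to LDLOM (5.25%). Within the thin limbs there were 3 between LDLOM and LDLIM (2.71%) and 2 between LDLIM and tAL (0.758%). The thick limb began with 2 calls from tAL to mTAL (6.34%) and had 1 from mTAL to cTAL (1.03%). Further on there were 4 from cTAL to DCT (0.849%), 3 from DCT to CNT (2.15%), 2 from CCD to OMCD (1.3%) and 4 from OMCD to IMCD (7.47%). No member was called from S1 to S2 (0.596%), S2 to S3 (0.885%), SDL to LDLOM (0.153%) or CNT to CCD (0.0722%). Irx1, higher in LDLOM than in SDL by 1.43 ± 0.40 (adjusted p = 0.103), was called there at 1.65 ± 0.41 without the 4 libraries that stood apart (adjusted p = 0.0454).

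Border calls rested on the spread shared by all segments. With only the 2 segments of a border in the fit, 17 of the 26 calls that could be tested again were lost, with adjusted p between 0.0663 and 0.840. The 9 kept were Ehf, Pax8 and Hnf4a from S3 to SDL, Irx1 and Irx2 from cTAL to DCT, Gata2, Ovol1 and Esrrb from DCT to CNT, and Tfcp2l1 from OMCD to IMCD.

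Hnf4a was the only member called higher in the proximal tubule than elsewhere. Other members were present there too, such as Pax8 with medians of 22.2, 18.4 and 23.1 RPKM in S1, S2 and S3. Segment regions were compared as the mean of the region's segments minus the mean of all others, with the same call rule as at borders. In the proximal tubule 14 of 27 members were called, against 22.3% of all genes. Hnf4a alone was higher, against 6.87% of genes higher, and 13 members were lower, against 15.4% of genes lower. The members' median log2 difference was -0.94 and that of all genes -0.36. Under quantile normalization 2 members were higher (Hnf4a and Nr1h4) and 7 lower, and the share of higher among called genes went from 30.8% to 51.8%.

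Hnf4a, a master regulator of proximal tubule and liver genes, had levels of 0.791, 20.3 and 44.98 RPKM (lowest, median, highest) in S1. In S2 its levels were 4.37, 27.8 and 146 RPKM, and in S3 they were 0, 42.2 and 73.3 RPKM. Nearly every proximal library was high, and the median in each of the other 11 segments was at or below 0.103 RPKM. The log2 difference was 4.05 ± 0.27 (SE, adjusted p = 1.52e-26). S3 replicate 2 was listed at 0, and S3 replicate 7, which stood apart, had 1.80 RPKM. Between S3 and the thin limbs the gene dropped, with a log2 difference of -4.02 ± 0.54 in SDL (adjusted p = 2.52e-09) and -3.12 ± 0.55 in LDLOM (adjusted p = 7.32e-06).

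Its close relative Hnf4g was sparse. It reached 1 RPKM in 2 of 7 S1 libraries, at most 25.1 RPKM, and in 2 of 7 S2 libraries, at most 15.9 RPKM, and in none of the other tubule libraries. It passed the filter only through these S1 and S2 libraries, so its variation across segments (adjusted p = 0.0449) is no independent result. That became adjusted p = 0.0580 without the 4 libraries that stood apart, and no region difference was called. Nr1h4, the bile acid receptor FXR, had its highest medians in S1 (4.13 RPKM) and in cTAL (3.82 RPKM), with no region difference called.

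Among the members lower in the proximal tubule were the epithelial Ets factors Ehf and Elf3. Elf3 had levels of 0, 1.32 and 174 RPKM (lowest, median, highest) over the 21 proximal libraries and 0, 64.5 and 1286 RPKM over the other 84. The highest of those 21 was S3 replicate 7. The log2 difference was -3.85 ± 0.57 (adjusted p = 1.56e-08). For Ehf it was -3.29 ± 0.42 (adjusted p = 1.62e-10), with no proximal library above 3.08 RPKM. Gata3 (-2.39 ± 0.31), Tfap2b (-2.05 ± 0.40) and Gata2 (-1.76 ± 0.36) were lower as well, with proximal medians under 0.1 RPKM. Klf5 lay at the limit of 1, with a log2 difference of -1.002 that was called with all libraries, and of -0.998 that was not called without the 4 that stood apart, when Irx2 (-1.01) was called instead. It also fell under the limit without LDLIM replicate 1, 2 or 3 (-0.996, -0.94 and -0.98). Emx2 and Pax8 lay closest to the threshold, with adjusted p = 0.0442 and 0.0445, and Emx2 was not called without LDLIM replicate 3 or 4 (adjusted p = 0.0514 and 0.0590). Under quantile normalization Emx2 was at -0.42 and not called (adjusted p = 0.505). Pax8 was not called at a pseudocount of 0.1 or with detected genes in the model (adjusted p = 0.0845 and 0.0951). Nor was it called without the filter or in the second table (adjusted p = 0.0554 and 0.0506).

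**Figure D2:**
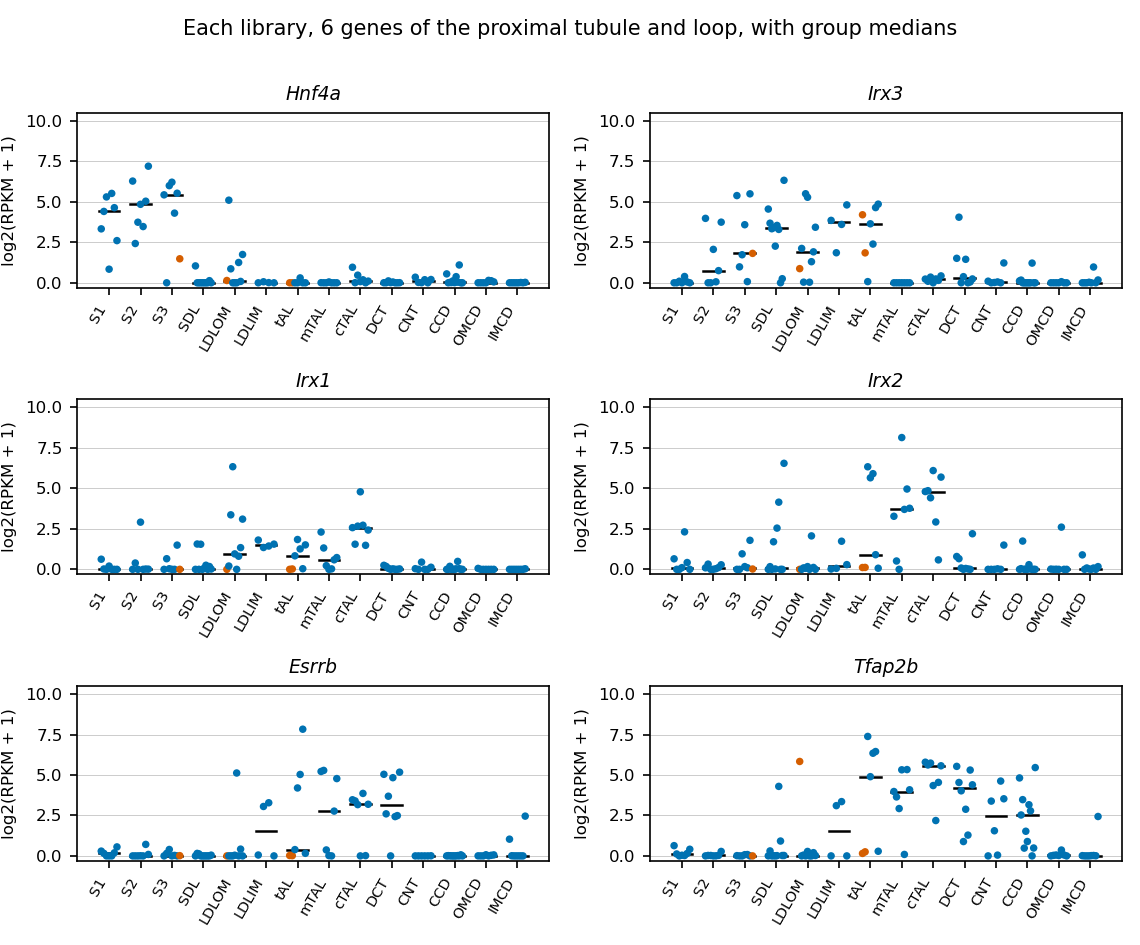
Each point is a library, placed by segment, with log2(RPKM + 1) on the vertical axis and a bar at the group median; the 4 libraries that stood apart are orange. Hnf4a lies high in S1 to S3, Irx3 in thin limbs and at 0 in all 7 mTAL libraries, and Irx1, Irx2, Esrrb and Tfap2b are high in cTAL.

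Thin limbs carried the highest Pax8 of the nephron, together with Irx3 and the Ets factors Ehf and Elf3. In the thin limbs 10 of 27 members were called, against 16.2% of all genes, 5 of them higher (8.13% of genes) and 5 lower (8.02%). The members' median log2 difference was 0.20 and that of all genes 0.02. Higher were Ehf, Elf3, Irx3, Pax8 and Sim1, and lower were Gata2, Gata3, Hnf4a, Lhx1 and Tfcp2l1. The same genes were called, in the same directions, without the 4 libraries that stood apart.

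Pax8, a paired-box factor required for nephron formation, was detected at 1 RPKM in 89 tubule libraries. In SDL its levels were 30.8, 292 and 799 RPKM (lowest, median, highest), and the 4 LDLIM libraries had 283, 230, 170 and 524 RPKM. Medians were 112 RPKM in LDLOM and 83.6 RPKM in tAL, or 144.5 and 202 RPKM without the libraries that stood apart. High Pax8 was not confined to thin limbs, since IMCD had 3.49, 113 and 311 RPKM. The mTAL stood at the other end, with 0, 0.210 and 32.9 RPKM. The thin limb difference was 3.01 ± 0.46 (adjusted p = 1.08e-07) and the thick limb difference -2.41 ± 0.59 (adjusted p = 0.00456). Pax8 rose from S3 to SDL by 3.87 ± 1.01 (adjusted p = 0.00521) and fell from tAL to mTAL by 3.54 ± 1.09 (adjusted p = 0.0325). Without libraries under 2500 genes, the thick limb difference (-1.91, adjusted p = 0.0652) and that fall (-2.76, adjusted p = 0.166) lost their calls. Its relative Pax2 was low throughout, with no segment median above 0.309 RPKM and 1 RPKM reached in 2 libraries.

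Irx3 had levels of 2.62 to 27.1 RPKM in LDLIM (replicate values 13.5, 2.62, 11.2 and 27.1 RPKM) and a median of 9.37 RPKM in SDL and 11.5 RPKM in tAL. All 7 mTAL libraries were listed at 0, below every tAL library, the lowest of which had 0.0512 RPKM. The border difference was -3.10 ± 0.72 (adjusted p = 0.00262), and such a call without overlap occurred for 0.614% of all genes there. The thin limb difference was 2.39 ± 0.30 (adjusted p = 2.43e-10). Irx3 was not confined to thin limbs, since 5 of 7 S3 libraries reached 1 RPKM, with a median of 2.53 RPKM.

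Elf3, an Ets factor of lining epithelia, had 434, 429, 259 and 282 RPKM in the 4 LDLIM libraries, all above the 9 LDLOM libraries, whose levels were 0.0284, 2.21 and 161 RPKM (lowest, median, highest). The difference between these descending limb parts was 5.06 ± 1.39 (adjusted p = 0.0239), and a call without overlap occurred for 0.433% of genes. It was 3.24 and no longer called with the number of detected genes in the model (adjusted p = 0.280), and was also lost without LDLIM replicate 1, 2 or 3, at 4.95, 4.96 and 5.20. In Ehf, the LDLIM libraries had 156, 204, 120 and 121 RPKM, above every tAL library (0.0145, 1.39 and 66.6 RPKM as lowest, median and highest). Without the tAL libraries that stood apart, the tAL median of Ehf was 30.2 RPKM, and the difference of -4.49 ± 1.08 (adjusted p = 0.0156) became -3.53 (adjusted p = 0.185). The rise of Ehf from LDLOM to LDLIM was likewise lost (3.60, adjusted p = 0.0347, against 3.48, adjusted p = 0.0524), and was not called without LDLIM replicate 1, 2 or 3 (adjusted p = 0.0971, 0.103 and 0.0901). The difference between LDLIM and tAL was not called without LDLIM replicate 1 or 2 (adjusted p = 0.0528 and 0.0623). From S3 to LDLOM, Ehf rose by 2.98 ± 0.87 (adjusted p = 0.0212) and Irx1 by 1.48 ± 0.44 (adjusted p = 0.0231), and from S3 to SDL Ehf rose by 5.00 ± 0.85 (adjusted p = 2.95e-06). The rise of Ehf into LDLOM was 1.40 and not called in the second table (adjusted p = 0.587), and that of Irx1 was not called under quantile normalization (1.495, adjusted p = 0.0826). Elf3 fell from tAL to mTAL by 4.40 without the 4 libraries (adjusted p = 0.0229), and by 2.82 without a call with them (adjusted p = 0.161). Ovol1 likewise fell at that border by 3.39 ± 1.05 without the 4 libraries (adjusted p = 0.0356), and had a difference of -2.47 ± 0.96 with them (adjusted p = 0.103). Klf5, a zinc-finger factor of lining epithelia, rose from LDLOM to LDLIM by 2.26 ± 0.63 (adjusted p = 0.0284), with 7.52, 26.3, 10.9 and 0.0491 RPKM in LDLIM. That call was lost without LDLIM replicate 1, 2 or 3, at differences of 2.18, 1.62 and 2.03. Osr2, a zinc-finger factor, had 6.16, 0, 3.83 and 0.0729 RPKM in LDLIM. Its fall towards tAL (-1.17 ± 0.32, adjusted p = 0.0472) was not called without the 4 libraries that stood apart (adjusted p = 0.135), nor without LDLIM replicate 1 or 3 (-0.66 and -0.85). Beyond 2 LDLIM libraries, Osr2 reached 1 RPKM only in 1 library each of S1, SDL and LDLOM, under the filter's limit of 4. It passed the filter only with LDLIM, where it was high, so this call is no independent result.

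Gata2 in tAL rested on the libraries that stood apart. Replicates 1 and 2 had 66.7 and 18.3 RPKM, and the other 5 tAL libraries at most 0.196 RPKM. These 2 libraries also held the endothelial markers given above, and the part of other cells in this result was not tested. LDLOM replicate 1 had 56.1 RPKM of Tfap2b, while the other 8 LDLOM libraries had at most 0.210 RPKM.

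Irx1, Irx2, Tfap2b and Esrrb were higher in the thick ascending limb, Irx1 chiefly in cTAL. In the thick limb 10 of 27 members were called, against 3.98% of all genes, 4 of them higher (1.64% of genes) and 6 lower (2.34%). The members' median log2 difference was -0.51 and that of all genes -0.24. Lower were Ehf, Gata2, Gata3, Hnf4a, Irx3 and Pax8. The same 10 genes were called with quantile normalization, which moved the share of higher among called genes from 41.3% to 64.2%.

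Irx2 had levels of 0, 12.04 and 282 RPKM in mTAL and 0.499, 26.98 and 67.7 RPKM in cTAL. The DCT, the next segment, had 0, 0.0481 and 3.59 RPKM. Both thick limb groups were high apart from single libraries, and the region difference was 3.21 ± 0.42 (adjusted p = 3.43e-09). From cTAL to DCT the gene fell by 3.72 ± 0.75 (adjusted p = 0.000926).

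Irx1 had its highest median in cTAL, where its levels were 1.80, 4.97 and 26.7 RPKM. In mTAL it reached 1 RPKM in 2 of 7 libraries. It also reached 1 RPKM in all 4 LDLIM libraries, with a median of 1.83 RPKM. In LDLOM it did so in 4 of 9 libraries, the highest at 80.0 RPKM. All 7 cTAL libraries exceeded all 8 DCT libraries, the highest of which had 0.189 RPKM. The difference was -2.54 ± 0.45 (adjusted p = 6.56e-05), and a call without overlap occurred for 0.126% of genes at this border. Under quantile normalization it was -1.94 (adjusted p = 0.0668). Between mTAL, with a median of 0.504 RPKM, and cTAL it rose by 1.86 ± 0.46 (adjusted p = 0.0173), but only by 0.43 and without a call under quantile normalization (adjusted p = 0.986). All-gene medians differed by 0.55 between these segments.

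Tfap2b, an AP-2 factor needed for distal nephron differentiation, had levels of 0.0648, 14.8 and 39.3 RPKM in mTAL and 3.55, 46.4 and 54.3 RPKM in cTAL. It stayed at a median of 17.6 RPKM in DCT and 5.69 RPKM in CNT, and dropped to 0.0234 RPKM in OMCD. The region difference was 2.95 ± 0.47 (adjusted p = 1.48e-06). Esrrb, an orphan nuclear receptor, had medians of 5.81 RPKM in mTAL, 8.12 RPKM in cTAL and 8.46 RPKM in DCT. In the 6 CNT libraries no value passed 0.00482 RPKM, and the fall from DCT to CNT was -3.28 ± 0.74 (adjusted p = 0.00232). Its relative Esrrg continued further, with medians of 4.63 RPKM in cTAL, 2.61 RPKM in DCT and 4.65 RPKM in CNT, and no region difference was called.

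In tAL, which leads into the thick limb, these factors were uneven. Irx2 had 79.8, 49.4 and 59.2 RPKM in replicates 3, 4 and 5 and at most 0.872 RPKM in the other 4. Esrrb had 17.3, 31.7 and 226 RPKM in replicates 4, 5 and 6, and Tfap2b 166, 28.7, 80.2 and 86.3 RPKM in replicates 3 to 6. Replicates 1 and 2, which stood apart, were low for all 3 genes, and without them the tAL median went from 0.872 to 49.4 RPKM for Irx2, from 0.309 to 17.3 RPKM for Esrrb and from 28.7 to 80.2 RPKM for Tfap2b. Thick limb markers in replicates 3 to 5 summed to 88.6, 39.6 and 129 RPKM, the 3 highest sums of the tAL libraries, against 522 RPKM or more in mTAL, and their part was not tested.

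The distal convoluted and connecting tubules showed the onset of Gata3 and, one segment later, of Gata2. In this region 4 of 27 members were called, against 4.29% of all genes. Gata3, Lhx1 and Tfcp2l1 were higher (3.3% of genes) and Hnf4a lower (0.984%). The members' median log2 difference was 0.00 and that of all genes 0.13. Without the 4 libraries that stood apart, Tfap2b was also higher (1.33, adjusted p = 0.0434). Under quantile normalization the same 3 were higher and 4 lower, with Ehf, Irx2 and Pax8 added.

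Gata3, a zinc-finger factor of the ureteric lineage, reached 1 RPKM in 6 of the 65 libraries before the DCT and in all 8 DCT libraries. The DCT levels were 2.90, 6.27 and 152 RPKM (lowest, median, highest), and cTAL levels were 0, 0.218 and 12.4 RPKM. In CNT they were 1.53, 71.0 and 263 RPKM. The rise from cTAL to DCT was 2.86 ± 0.65 (adjusted p = 0.00524), the DCT and connecting tubule difference 2.88 ± 0.37 (adjusted p = 8.99e-10). In the second deposited table the rise into the DCT was 2.03 and not called (adjusted p = 0.325), and under quantile normalization it was 2.46 (adjusted p = 0.0503).

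Gata2, the other GATA factor, was still low in the 8 DCT libraries, at 0, 0.0823 and 0.488 RPKM. It reached 0.246, 55.6 and 69.9 RPKM in CNT, a rise of 4.49 ± 0.79 (adjusted p = 2.45e-05). The single low CNT library, replicate 4, was also lowest in Gata3 and had the fewest detected genes of its group (2064). Ovol1, a zinc-finger repressor of epithelia, rose at the same border by 3.53 ± 0.97 (adjusted p = 0.0243), from at most 0.233 RPKM in DCT to 0, 14.0 and 58.2 RPKM in CNT. Under quantile normalization this was 2.61 and not called (adjusted p = 0.0717). Principal cell markers summed to 10.46 to 677 RPKM in DCT and to 1020 RPKM or more in CNT.

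Lhx1, a LIM homeobox factor of early nephrons, rose from cTAL to the DCT. Its levels were 0.118, 19.6 and 59.6 RPKM there and 0, 0.306 and 4.28 RPKM in cTAL, a rise of 3.06 ± 0.70 (adjusted p = 0.00524). It was at or near 0 in the thin limbs and mTAL, where no library passed 0.895 RPKM. In S2, however, 3 of 7 libraries reached 1 RPKM, the highest being replicate 2 at 105.03 RPKM. The mean log2 level was 2.11 in S2 and 2.12 in CNT. It remained in CCD (0, 12.9 and 116 RPKM) and fell into OMCD by 2.79 ± 0.65 (adjusted p = 0.00821). Under quantile normalization this fall was 1.47 and not called (adjusted p = 0.342).

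The collecting duct held the most members that were higher. In the collecting duct 12 of 27 members were called, against 11.5% of all genes, 8 higher (9.01% of genes) and 4 lower (2.52%). The members' median log2 difference was 0.30 and that of all genes 0.24. Higher were Ehf, Elf3, Elf5, Emx2, Gata2, Gata3, Tfap2a and Tfcp2l1, and lower were Esrrb, Hnf4a, Irx2 and Irx3. Elf5 and Tfap2a passed the filter only through collecting duct libraries, so their direction was fixed in advance and their calls add no support. Emx2 lost its call under quantile normalization (0.77, adjusted p = 0.205). Without the 4 libraries that stood apart, Tfap2b was also lower (-1.08, adjusted p = 0.0174).

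**Figure D3:**
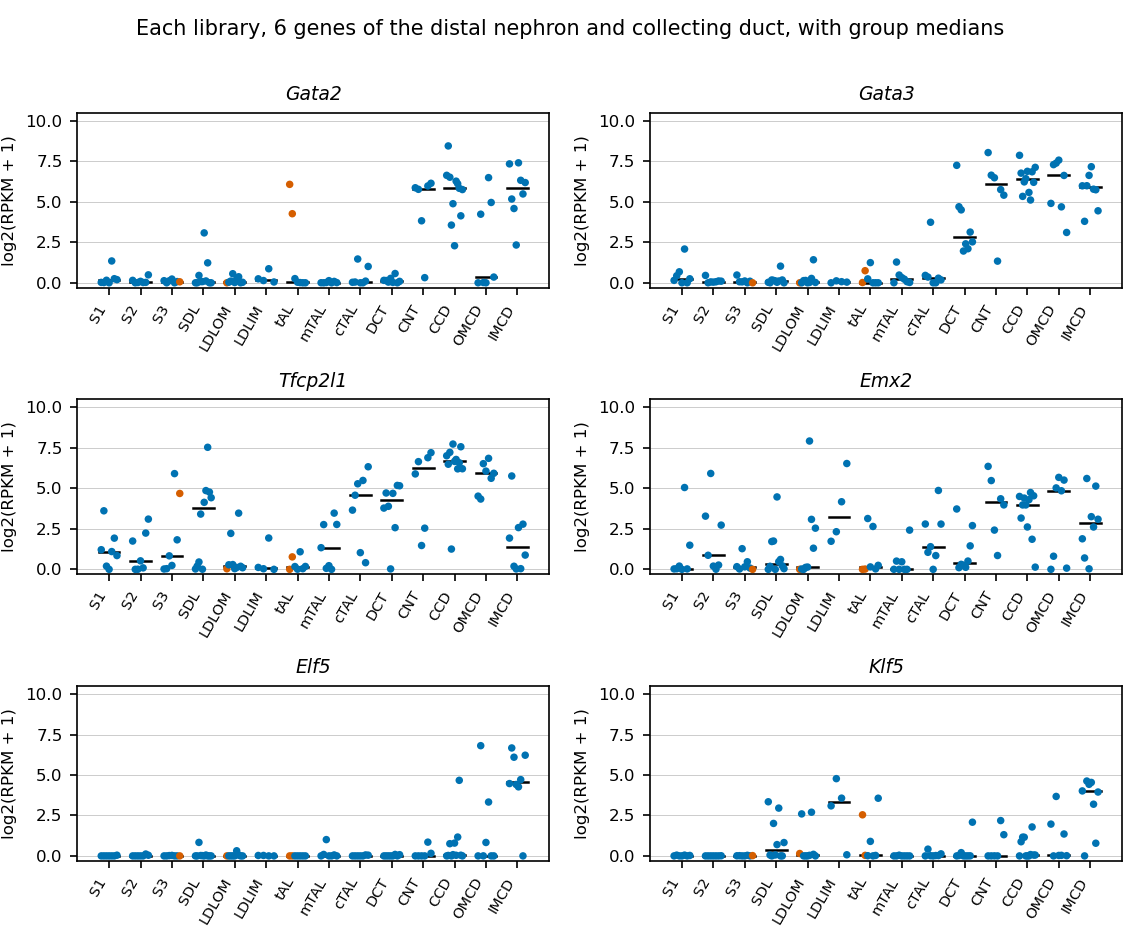
Each point is a library, placed by segment, with log2(RPKM + 1) on the vertical axis and a bar at the group median; the 4 libraries that stood apart are orange. Gata3 is raised from the DCT on, Gata2 from the CNT on except in 4 of 7 OMCD libraries, Tfcp2l1 is low in most IMCD libraries, and Elf5 is high in 7 of 8 IMCD libraries.

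Gata3 was the member with the largest region difference, 4.94 ± 0.29 (adjusted p = 9.25e-30). All 26 collecting duct libraries had it, from 7.63 to 233.9 RPKM, with medians of 85.5 RPKM in CCD, 98.2 RPKM in OMCD and 58.4 RPKM in IMCD. These 3 segments overlapped and no difference between neighbours was called for it.

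Gata2 (3.72 ± 0.34, adjusted p = 4.24e-17) was uneven in the outer medulla. Its levels were 3.89, 56.2 and 350 RPKM in CCD and 4.04, 58.04 and 169 RPKM in IMCD. In OMCD, replicates 1 to 7 had 0, 17.9, 0.0117, 0, 89.4, 30.2 and 0.278 RPKM. The OMCD libraries thus split into 4 under 1 RPKM and 3 well above it, while every CCD and IMCD library was above 3 RPKM. The differences were -3.20 ± 0.71 from CCD to OMCD (adjusted p = 0.00405) and 3.31 ± 0.76 from OMCD to IMCD (adjusted p = 0.00117). The 3 high OMCD libraries had 4099, 7202 and 4541 detected genes and the 4 low ones 2517 to 3212. With the number of detected genes in the model the differences were -2.61 (adjusted p = 0.0420) and 2.82 (adjusted p = 0.00561). Under quantile normalization the first was -2.57 and not called (adjusted p = 0.0562). Principal cell markers in OMCD summed to 2250 RPKM or more in every library, and Gata3 was at least 7.63 RPKM.

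Tfcp2l1, a grainyhead-related factor of intercalated and principal cells, had levels of 1.38, 101 and 213 RPKM in CCD and 19.3, 60.2 and 115 RPKM in OMCD. In IMCD they were 0.0162, 1.83 and 53.5 RPKM, a fall of 3.92 ± 0.94 (adjusted p = 0.00235). Only replicate 2 of the IMCD libraries reached the OMCD range. Intercalated cell markers summed to 867 to 2131 RPKM in OMCD and to 0 to 71.5 RPKM in IMCD, none of the 5 with a median of 1 RPKM there, while principal cell markers had medians of 5802 and 6466 RPKM. The part of intercalated cell content in the fall was not tested.

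Elf5, an Ets factor known from mammary and other secretory epithelia, was the only member selective for 1 segment, against 1.19% of all genes. Selective meant a mean above that of each other segment by at least 1, with the largest of the 13 p-values passing after adjustment. The 8 IMCD libraries had a lowest value of 0, a median of 23.2 RPKM and a highest of 101 RPKM, and 7 of them were at 18.2 RPKM or more. In OMCD it reached 1 RPKM in 2 of 7 libraries, at 111 and 9.04 RPKM, and in CCD in 2 of 11, at most 24.4 RPKM. Outside the collecting duct only 1 library, of mTAL, reached 1 RPKM, at 1.01 RPKM. Elf5 thus passed the filter only through the collecting duct, and its call as higher in that region adds no support. The IMCD exceeded OMCD, the next segment, by 3.04 ± 0.52 (adjusted p = 1.68e-05 for selectivity).

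Klf5 also rose into IMCD, by 2.18 ± 0.54 (adjusted p = 0.00365), from a median of 0.0237 RPKM in OMCD to 0, 14.8 and 23.7 RPKM. Under quantile normalization this was 0.70 and not called (adjusted p = 0.484). All-gene medians were higher in IMCD by 0.55. Tfap2a, the AP-2 factor of surface epithelia, was close to 0 outside the distal nephron, where no library before the DCT passed 0.123 RPKM. Its medians were 1.29 RPKM in CCD, 0.0854 RPKM in OMCD and 3.54 RPKM in IMCD, and the region difference was 1.47 ± 0.21 (adjusted p = 9.29e-09). Outside the collecting duct Tfap2a reached 1 RPKM only in 2 CNT libraries and 1 DCT library, under the filter's limit of 4. It passed the filter only through the collecting duct, so its direction was fixed in advance and this p-value adds no support. Emx2, a homeobox factor of the ureteric bud and its derivatives, had medians of 17.2 RPKM in CNT, 14.8 RPKM in CCD, 27.9 RPKM in OMCD and 6.34 RPKM in IMCD. Emx2 was not confined to these segments, since all 4 LDLIM and 5 of 7 cTAL libraries reached 1 RPKM. Its mean log2 level in LDLIM was second only to that in CNT, at 0.22 below it. The highest library, at 243 RPKM, was from LDLOM.

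Ehf and Elf3 were shared by collecting duct and thin limbs. In IMCD, Elf3 had levels of 57.3, 542 and 1199 RPKM and Ehf 20.7, 77.2 and 207 RPKM. The collecting duct differences were 2.70 ± 0.53 for Elf3 (adjusted p = 4.74e-05) and 2.84 ± 0.40 for Ehf (adjusted p = 9.64e-09). Both genes had high values in LDLIM and IMCD of the inner medulla, and zone and digestion time cannot be told apart there.

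**Figure D4:**
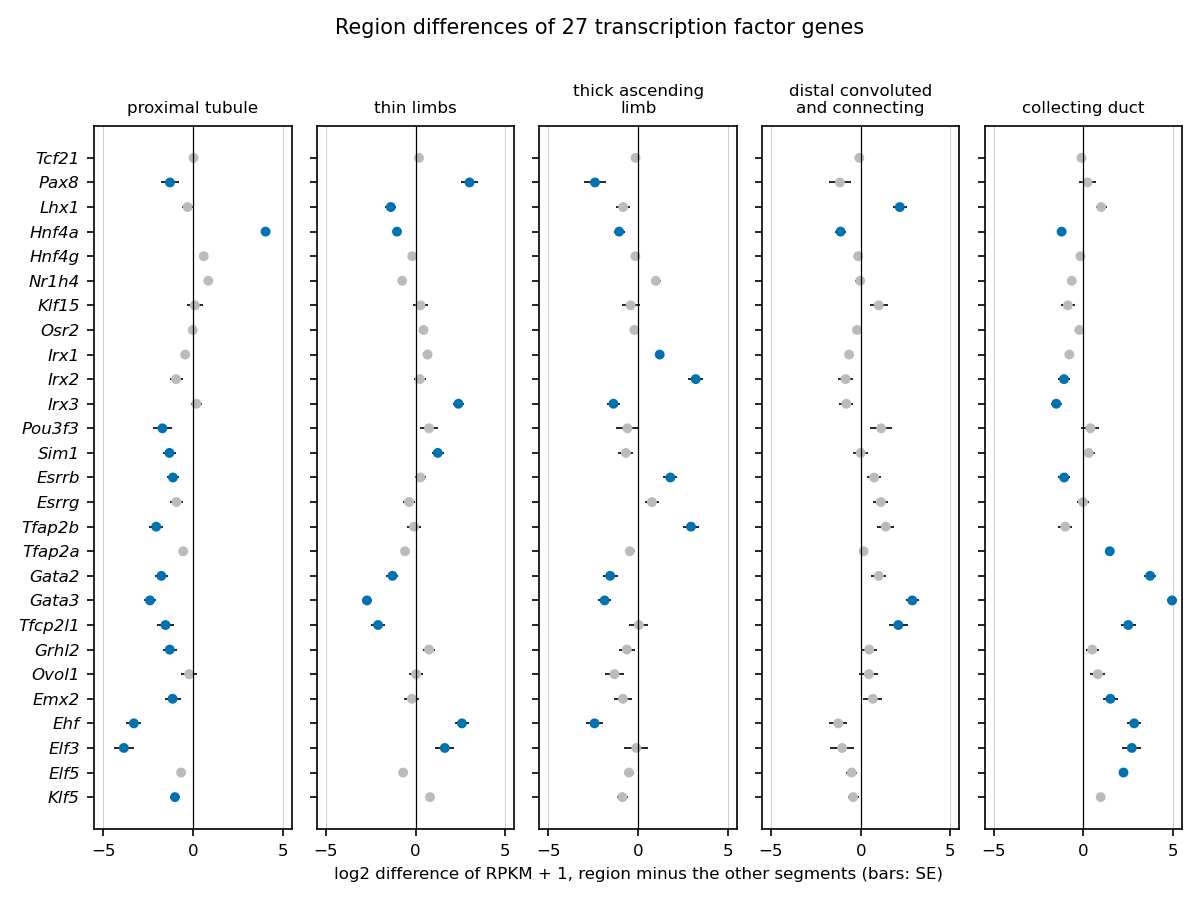
Log2 difference of RPKM + 1 between each of 5 regions and the mean of the other segments (horizontal axis, bars SE) for the 27 members tested, in blue where called and grey where not. Hnf4a stands alone on the right in the proximal tubule at 4.05, Irx2 and Tfap2b in the thick limb at 3.21 and 2.95, and Gata3 in the collecting duct at 4.94.

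The members that did not vary across the 14 segments at the threshold included broadly and sporadically present ones. Pou3f3, a POU factor of the loop and distal nephron, had a median of 1 RPKM or more in 11 segments, the highest in LDLIM (47.9, 73.5, 13.4 and 128 RPKM). Among tubule regions and borders it was called only as lower in the proximal tubule (-1.70 ± 0.53, adjusted p = 0.0107). Under quantile normalization that difference was -1.17 and not called (adjusted p = 0.0593). Pou3f3 was also called lower in glomeruli (-2.78, adjusted p = 0.0179). Klf15, a factor of metabolic and circadian genes, had its highest median in DCT (9.34 RPKM) and was at 0.796 RPKM or less in every OMCD library. Grhl2, a grainyhead factor that maintains epithelial junctions, and Sim1 had their highest medians in LDLIM (10.2 and 8.17 RPKM). Sim1 was called higher in thin limbs (1.24 ± 0.33, adjusted p = 0.00253), and both were called lower in the proximal tubule, where Grhl2 did not pass 0.151 RPKM in any library.

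Over the 14 segment means of log2(RPKM + 1), the pair with the most alike profiles was Gata2 and Tfap2a (Pearson r = 0.919), then Sim1 and Grhl2 (0.913), Gata3 and Tfap2a (0.9) and Gata2 and Gata3 (0.861). Among factors of the loop, Tfap2b was most like Esrrb (0.83), and Hnf4a was most like Hnf4g (0.767). These values describe 14 points that share libraries and their depth, and the number of detected genes differed between them.

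Glomeruli carried Wt1, Foxc2 and Tcf21, which were at or near 0 in most tubule libraries. Of 29 members tested against the mean of the 14 segments, 9 were called, against 38.9% of 11456 genes. Higher were 5 (37.7% of genes), namely Wt1, Foxc2, Tcf21, Gata2 and Gata3, and lower were 4 (1.19%), namely Ehf, Elf3, Pou3f3 and Tfcp2l1. Ehf (-1.96 ± 0.77, adjusted p = 0.0339) was not called without glomerulus replicate 1, 3 or 5 (adjusted p = 0.107, 0.108 and 0.0752). Tfcp2l1 (-2.02 ± 0.81, adjusted p = 0.0387) was not called without replicate 1, 2, 4 or 5 (adjusted p = 0.0706, 0.0963, 0.0843 and 0.0878), nor with the replicate number as a block (adjusted p = 0.0562). At a pseudocount of 0.1 neither was called (adjusted p = 0.0634 and 0.0777). Glomerulus libraries held more detected genes (8818 to 9483), and the all-gene median was higher by 1.32, while the members' median was -0.59. Quantile normalization changed the share of higher among called genes from 96.9% to 61.7%, and left 3 members higher and 7 lower, with Hnf4a, Pax8 and Tfap2b added to the lower ones.

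Wt1, the zinc-finger factor of podocytes, had 251, 304, 240, 203 and 292 RPKM in the 5 glomerulus libraries. Of the tubule libraries 71 were listed at 0 and 3 reached 1 RPKM, the highest at 16.6 RPKM in S3. Foxc2, a forkhead factor of podocytes and vessels, had 19.1, 47.3, 35.3, 14.6 and 69.5 RPKM, and the highest tubule library 9.46 RPKM. Every glomerulus library exceeded every tubule library for both genes. Tcf21, of podocytes and stroma, had 24.8, 23.6, 29.4, 14.2 and 29.0 RPKM, and no tubule library passed 9.96 RPKM. The differences were 7.90 ± 0.24 for Wt1 (adjusted p = 4.17e-56), 4.93 ± 0.23 for Foxc2 (adjusted p = 1.52e-38) and 4.46 ± 0.26 for Tcf21 (adjusted p = 1.94e-30). Such calls without overlap occurred for 1.55% of all genes. Wt1 and Foxc2 each reached 1 RPKM in 3 tubule libraries, under the filter's limit of 4. They entered the comparison only through the glomerulus libraries, so their direction was fixed in advance and their p-values add no support.

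**Figure D5:**
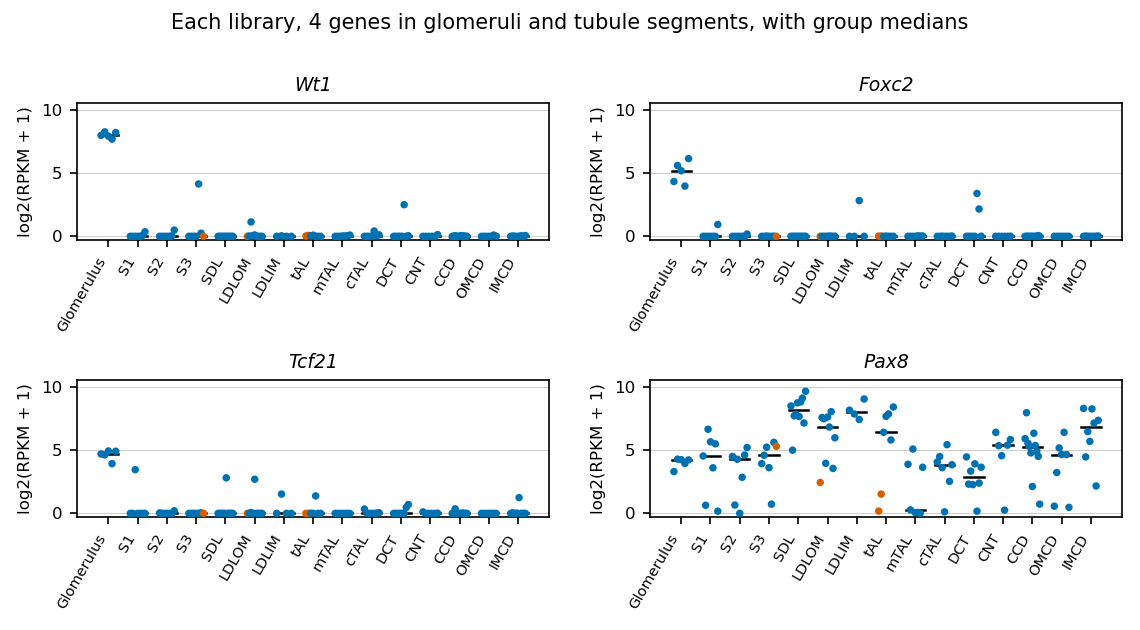
Each point is a library of the glomerulus or of a tubule segment, with log2(RPKM + 1) on the vertical axis and a bar at the group median; the 4 libraries that stood apart are orange. Wt1, Foxc2 and Tcf21 are high in all 5 glomerulus libraries and near 0 in most tubule libraries, while Pax8 is present in nearly every group.

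Gata2 had 38.5, 18.0, 13.8, 20.3 and 28.5 RPKM in glomeruli and Gata3 53.9, 18.8, 18.6, 15.8 and 12.2 RPKM. Their glomerulus medians lay above the medians of every segment before the CNT, and below those of CNT and CCD. The differences of 3.00 ± 0.65 (adjusted p = 8.26e-05) and 2.303 ± 0.54 (adjusted p = 0.000319) became 0.93 and 0.12 under quantile normalization, with neither called (adjusted p = 0.390 and 0.916). Glomeruli are a mixture. Podocyte markers summed to 1137 to 3992 RPKM, endothelial markers to 444.7 to 1064 RPKM, leukocyte markers to 673 to 1443 RPKM and mesangial and fibroblast markers to 37.5 to 64.6 RPKM, with Col1a2 at 0 throughout. Which cells held Gata2 and Gata3 was not tested. Pax8 had 8.83, 18.5, 17.9, 14.4 and 17.7 RPKM, and was not called.

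Under water load, which lets rats escape the antidiuretic action of vasopressin, no member was called. Of 16 members tested in CCD, 0 passed an adjusted p under 0.05 with limma, against 0.153% of 8492 genes, and 2 had an unadjusted p under 0.05. Pax8 had 106, 129, 171 and 139 RPKM in controls and 49.2, 73.5, 64.2 and 95.0 RPKM under water load. The groups did not overlap, as for 4.27% of all genes, and the difference was -0.96 ± 0.28 (p = 0.00424 before and adjusted p = 0.333 after adjustment). Pou3f3 had 43.3, 36.3, 99.5 and 27.4 RPKM in controls and 7.20, 19.5, 32.2 and 26.1 RPKM under water load, overlapping in part, with a difference of -1.24 ± 0.47 (adjusted p = 0.588). These values are from the fit without a block. With the rat number as a block, adjusted p was 0.164 for Pax8 and 0.265 for Pou3f3. Of the factors higher in the collecting duct, control and water-load means were 76.5 ± 24.9 and 63.6 ± 11.8 RPKM for Gata3, and 128 ± 22.5 and 121 ± 19.5 RPKM for Tfcp2l1 (SD, n = 4 each). Gata2 had means of 199.96 ± 54.7 and 145 ± 29.2 RPKM. Lower means under water load, with no call, were found for Ehf (6.79 ± 2.65 and 3.17 ± 0.609 RPKM, log2 difference -0.84 ± 0.44, adjusted p = 0.732) and Tfap2a (3.80 ± 1.01 and 2.04 ± 0.931 RPKM, -0.68 ± 0.44, adjusted p = 0.792). Elf5, Klf5, Irx1, Esrrb and Wt1 stayed under 1 RPKM in all 8 libraries.

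Other transcription factors known from kidney were read from a separate list of 77 symbols, of which 70 were in the table and 58 were tested across segments. In the proximal tubule 3 were higher, among them Maf (2.03 ± 0.37, adjusted p = 5.01e-06) and the xenobiotic receptor Nr1i2 (1.12 ± 0.24, adjusted p = 9.37e-05), and 16 were lower. In the thin limbs 13 were higher and 7 lower (15 and 7 without the libraries that stood apart). The largest were Atf3 (4.27 ± 0.60), the tonicity factor Nfat5 (3.95 ± 0.34) and Foxc1 (3.88 ± 0.38). Nfat5 had medians of 25.0 RPKM in SDL, 66.3 RPKM in LDLOM, 80.5 RPKM in LDLIM and 61.5 RPKM in tAL, against 6.43 RPKM in IMCD. Atf3, a stress-induced factor, had medians of 2250 RPKM in LDLIM and 557 RPKM in tAL, both digested for 90 min, which cannot be told apart from zone.

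In the thick limb 2 of these factors were higher and 4 lower, in the distal convoluted and connecting tubule 5 were higher and 2 lower, and in the collecting duct 7 were higher and 6 lower. The vitamin D receptor Vdr had the largest difference in distal convoluted and connecting tubule (4.05 ± 0.49, adjusted p = 1.68e-10), with medians of 95.3 RPKM in DCT and 58.7 RPKM in CNT. Foxi1, the factor of intercalated cells, led in the collecting duct (3.36 ± 0.30, adjusted p = 1.66e-17). Its medians were 79.2 RPKM in CNT, 112 RPKM in CCD and 94.2 RPKM in OMCD, and 0.00936 RPKM in IMCD, where Tfcp2l1 was low too. Against the segments, 23 of 60 tested were higher in glomeruli and 0 lower, among them Epas1 (6.15 ± 0.82) and Klf4 (5.15 ± 0.70). None of 34 was called under water load, and the background shares given above for each region apply to these counts.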

How the data were processed

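The values were deposited by the authors as RPKM per RefSeq transcript. Per the submitters' processing notes the tools were Trimmomatic 0.32, STAR 2.3.0-r192, SAMtools and HOMER on genome build rn5, and per the labels' protocols libraries followed a single-cell method with 50 nt read from each end. Order, settings and strand use: not given in the sources used here. Of the pair of segment tables, that made with polyadenylation data was used, and the other as an alternative, except for glomeruli, whose columns correlated at only 0.00859 to 0.0137 between tables. For the 503 symbols with several transcripts the highest-mean one was kept; the 3 Hnf4a entries differed by at most 0.893% in mean. Of 125 samples, 7 whole-kidney polyadenylation libraries were not used.

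Members and lists were chosen with earlier results of these data known. On the scale log2(RPKM + 1), each gene with 4 or more libraries of a comparison at 1 RPKM entered limma 3.58.1 (trended, two-sided, R 4.3.3), with Benjamini-Hochberg adjustment over all genes of a comparison. The 14 segments shared 1 fit, joined by 5 glomeruli for the glomerulus comparison. The water load fit used its 8 libraries and no limit on the size of the difference. All members are named where measured; of other factors, up to 3 called per direction with the largest difference, some of which are not reported here. The RPKM files give no counts, so counting error is unknown. Relative depth came from whole-number ratios of low RPKM values (tolerance 0.0002 in log2, 5 reference libraries), and at least 3 references gave the same value in 102 libraries. The contrasts were tested on simulated data. Same-numbered segment libraries were not taken as pairs, since the medians of their deviations' correlations lay between -0.0168 and 0.1. Single same-numbered libraries correlated at up to 0.724 between S1 and S2 and 0.625 between cTAL and DCT. Same-numbered rats of the water-load experiment correlated in all 4 cases (0.209 to 0.313), but their titles give only a number and do not pair them. The water-load values given come from the fit without the rat number as a block, and the block changed no call there. Tables were made with pandas 2.3.3 and numpy 2.4.6 under Python 3.11.15, and plots with matplotlib 3.10.9. Tried as alternatives were quantile normalization, a pseudocount of 0.1, all genes unfiltered, the replicate number as a block, detected genes as a covariate, libraries with 2500 genes or more, all transcripts, the second table, 2 segments alone, S1 as the only reference for glomeruli and leaving out single libraries. Leaving out 4 libraries that stood apart was chosen after seeing the data.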

Additional observations from a re-analysis of the deposited data

Results flagged for a closer look

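Dixon's test was applied to 27 groups of 4 to 10 libraries, and chance flags about 1 in 20 groups. In cTAL replicate 5, Tfap2b was 3.546 RPKM, far below the nearest library at 19.33 RPKM. In cTAL replicate 4, Irx1 was 26.69 RPKM, far above the nearest at 5.614 RPKM. That library had 2370 detected genes, the fewest of its group. In IMCD replicate 7, Elf5 was listed at 0, while the nearest library had 18.24 RPKM.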

How the results depend on the processing

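Of 109 calls on members, 24 were lost under quantile normalization, 9 when the number of detected genes entered the model, 9 when libraries under 2500 genes were dropped, 7 at a pseudocount of 0.1, 5 when the 4 libraries that stood apart were dropped and 4 when no gene was filtered. In the second table, of 94 calls tested there, 6 were lost. Under quantile normalization 9 members were called in the proximal tubule, 7 in the distal convoluted and connecting tubule and 16 at segment borders. With a pseudocount of 0.1, 16 were called in the thin limbs, and without libraries under 2500 genes 7 in the distal convoluted and connecting tubule. With 2 segments fitted alone, 9 border calls were made and 17 of 26 were lost. Against S1 as the only reference, glomerulus Ehf turned to 0.87 (adjusted p = 0.476) and Elf3 to 0.38 (adjusted p = 0.840). The cause was not tested. Leaving out single LDLIM libraries gave 21 to 23 members varying across segments, 12 to 13 called in the proximal tubule, 10 to 11 in thin limbs, 10 in the thick limb, 4 in the distal convoluted and connecting tubule, 13 in the collecting duct, 22 to 29 at borders and 1 selective. Leaving out single glomerulus libraries gave 7 to 8, and single water-load libraries 0.

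With the replicate number as a block, 106 of 109 calls were kept, 20 members varied across segments, 8 were called in glomeruli and 0 under water load. Segment libraries, and the rats of the water-load experiment, share only a number, so this is no paired analysis. Counting error is unknown without counts, and genes near 1 RPKM are the least certain.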
